A study of Mus musculus with 22 samples.

Results

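The collagen genes were followed in mRNA pulled down with an astrocyte-directed tag, across 2 regions of the optic nerve and 2 times after a rise in eye pressure. They were taken as every protein coding gene of the count table whose symbol is Col, a number, the letter a and a number, which gave 44 genes of 29367 in all. The 22 libraries held ribosome-associated mRNA, pulled down through a tagged ribosomal protein, from the unmyelinated optic nerve head (ONH) and from the myelinated optic nerve proper (ONP) just behind it. Each library was 1 pool of nerves from 4 mice (2 male and 2 female) aged 3 to 4 months. There were 7 ONH and 7 ONP libraries at 30 days and 4 ONH and 4 ONP libraries at 7 days after microbeads were injected into one eye to raise its intraocular pressure. All 4 groups shared the microbead injection and the same cross, labelled WT, of the ribotag strain B6J.129(Cg)-Rpl22tm1.1Psam/SjJ (Rpl22 HA/HA) with the 73.12Mvs/J line of B6.Cg-Tg (GFAP-Cre) mice. Cre was constitutive and driven by a mouse GFAP promoter, so the tag marked every cell in which that promoter had been active. Libraries from untreated mice were not analysed here, and the values below therefore compare regions and times among injected nerves and do not give a change from the uninjured state.

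Collagens are secreted or membrane-bound proteins in which chains wind into a triple helix, and the 44 genes fall into classes by what that helix builds. Fibrillar collagens (11 genes) form the cross-banded fibrils that bear tension, FACIT collagens (9 genes) sit on the surface of those fibrils, and basement membrane collagens (8 genes) form or anchor the sheet that separates astrocyte endfeet from vessels and from the pia. Beaded filament collagens (6 genes, all type VI) form fine microfibrils around cells, transmembrane collagens (4 genes) span the cell surface, short-chain collagens (3 genes) form open lattices, the anchoring collagen (1 gene, Col7a1) ties epithelial basement membrane to the stroma, and 2 genes fit none of these. In the optic nerve head the extracellular matrix is remodelled in glaucoma, and astrocytes are among the cells known to make it.

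Library totals ran from 16292489 to 33307092 counts, so that 3 counts were worth 0.0901 to 0.184 CPM (counts scaled to a common library total). Levels of single genes are given below as CPM after scaling by edgeR's TMM factors, and the 4 values of a 7-day group are those of its libraries a to d in that order. Astrocyte markers summed to 16369.7 to 27085 CPM in the ONH and 15305 to 33885 CPM in the ONP at 30 days, and Gfap led the list. At 7 days they summed to 13949 to 28036 CPM and 15594 to 21767 CPM. Oligodendrocyte markers summed to 13400 to 40424 CPM in the ONH and 25692 to 84856 CPM in the ONP at 30 days. At 7 days their sums were 18783 to 36302 CPM and 81031 to 108838 CPM, so in the ONP they were above the astrocyte sums. Sums of different lists do not give shares of cells. Markers of other cells were present in every group and differed between groups, and their levels are given beside the results they move with. In the ONH at 7 days, library d had the highest sum of fibroblast markers (3708 CPM) and of pigment epithelium markers (3803 CPM), and library a had the highest sum of surface epithelium markers (340.4 CPM). In the ONP at 30 days, replicates 7 and 5 had the highest microglia sums (5134 and 3937 CPM), and replicates 5 and 4 the highest fibrillar collagen sums (366 and 309 CPM). Fewer cells of a type and less RNA per cell cannot be told apart in such pools.

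Of the 44 genes, 31 had counts high enough to be tested in every comparison, 8 in some and 5 in none. The 5 were Col6a4, Col6a6, Col10a1, Col19a1 and Col24a1, whose highest CPM in any library was between 0.458 and 1.53. Per kilobase of exon, the highest mean levels in the ONH were those of Col1a2 (39.5 CPM per kb), Col9a3 (19.2) and Col18a1 (13.6). In the ONP they were those of Col9a3 (11.5 CPM per kb), Col1a2 (8.29) and Col6a1 (8.07). Scaled instead by the longest transcript, Col1a2 came first in both regions (91.7 CPM per kb in the ONH and 19.3 in the ONP), and Col8a1 took the third place in the ONH (18.2). The 44 genes together made up 842 to 1582 CPM in the ONH and 341 to 692 CPM in the ONP at 30 days, and 1402 to 2275 CPM and 549 to 950 CPM at 7 days. Col1a2 alone was a median of 34.8% of that sum in the ONH at 30 days and 14.8% in the ONP.

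**Figure D1:**
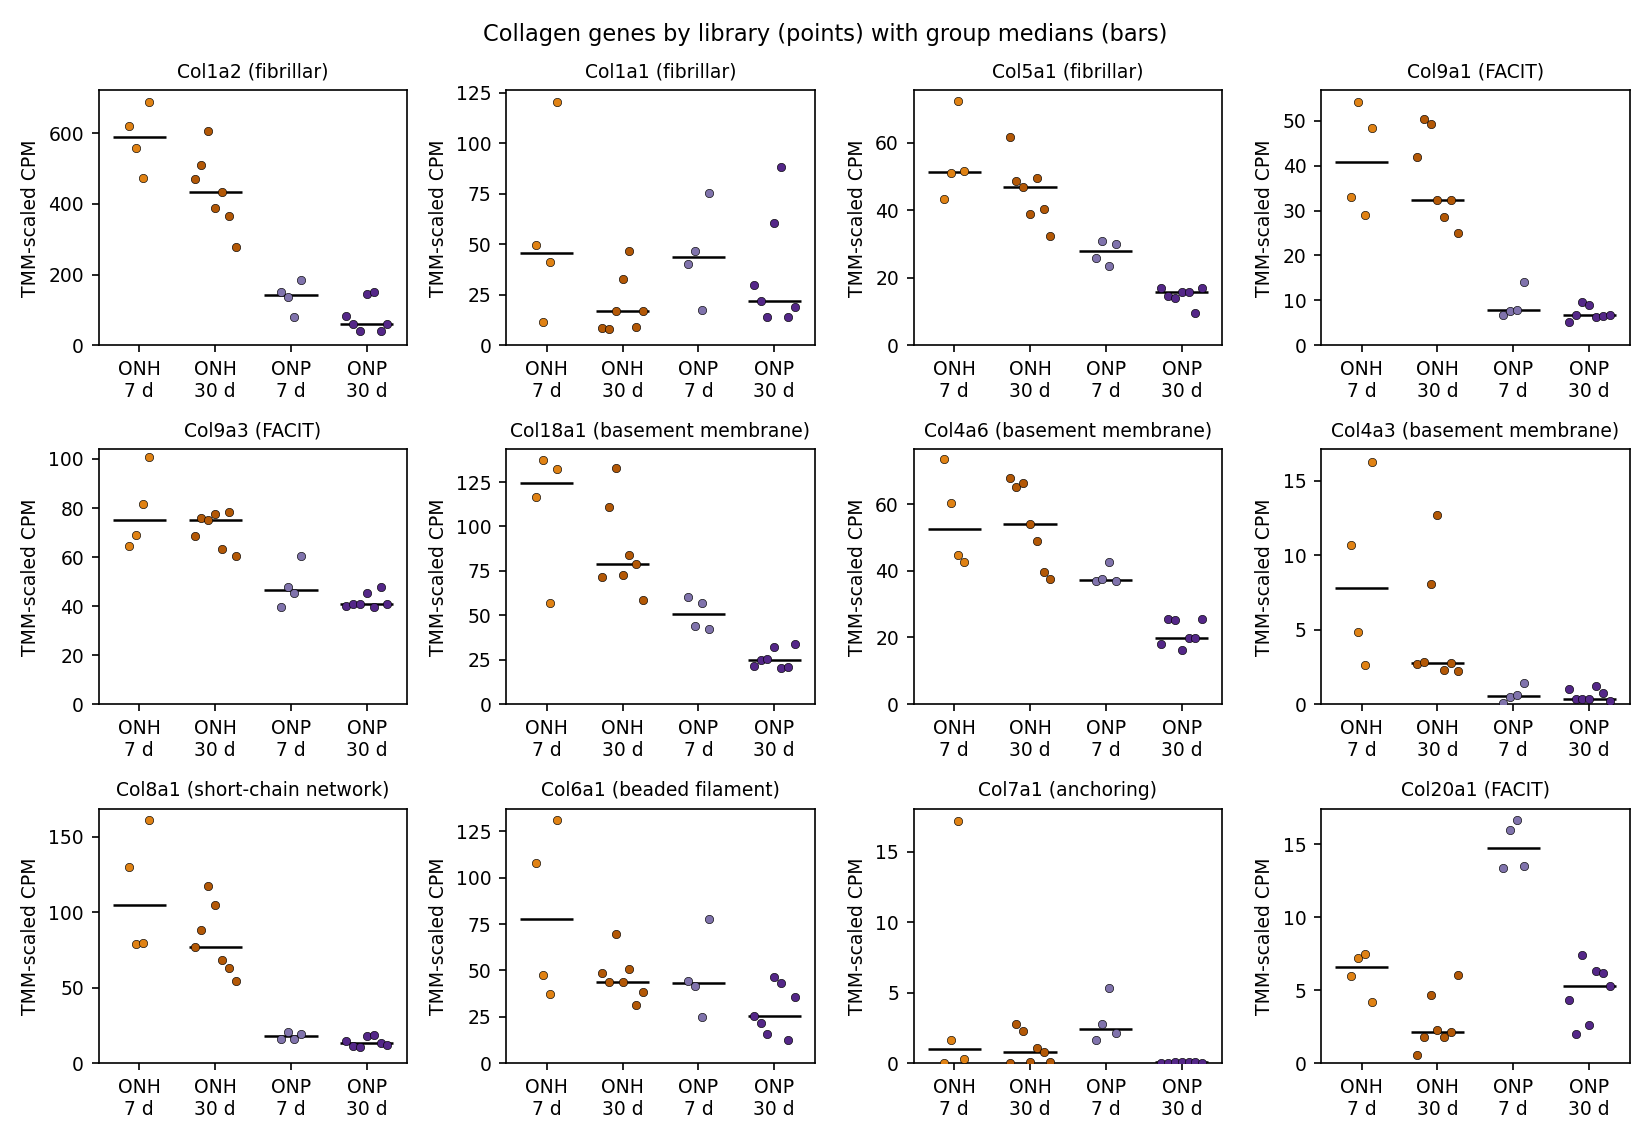
TMM-scaled CPM (vertical axes, from 0) of 12 collagen genes in each library (points) with the median of each group (bars), for the ONH and ONP at 7 and 30 days (horizontal axes). Col1a2, Col5a1, Col9a1 and Col8a1 lie higher in every ONH library than in any ONP library of the same day, Col1a1 does not, and Col7a1 lies near 0 in all 7 ONP libraries at 30 days.

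Between the regions, most collagens that differed were higher in the ONH. At 30 days, 32 collagens were tested by edgeR's quasi-likelihood test with Benjamini-Hochberg adjustment over all genes, and 19 were called higher and 1 lower in the ONH (adjusted p-value under 0.05), where 41.8% of all 15133 genes tested were called (21.8% higher and 20% lower). The median log2 fold change (log2FC) of the 32 was 0.95, against -0.01 over all genes. The values of 11 of them did not overlap between the regions and were higher in the ONH, against 8.48% of all genes, and 0 did so in the other direction (8.04% of all genes). At 7 days, 12 of 34 tested were called higher and 1 lower, where 13.2% of 14752 genes were called (6.34% higher and 6.81% lower). Their median log2FC was 0.87, against 0.07 over all genes, and 14 did not overlap in the higher direction (9.88% of all genes) and 1 in the lower (11.9%). Both regions came from the same mice within a pool. A fit with the pool, read from the replicate number, as a block called 20 higher and 2 lower at 30 days (44.4% of all genes were called).

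By class at 30 days, all 7 basement membrane collagens tested were called higher in the ONH, as were 5 of 8 FACIT, 3 of 10 fibrillar, 2 of 3 beaded filament, 1 of 2 short-chain and 1 of 2 transmembrane collagens. At 7 days the calls in that direction were 3 of 7 basement membrane, 4 of 8 FACIT, 2 of 10 fibrillar, 0 of 3 beaded filament, 2 of 2 short-chain and 1 of 3 transmembrane collagens. The single lower call was a FACIT collagen at both times, Col16a1 at 30 days and Col20a1 at 7 days. Col4a3, Col4a4, Col14a1 and Col22a1 had under 10 counts in some ONP libraries and passed the count filter only through their ONH libraries. They were not tested when 10 counts were required in each library. That fit called 15 of 26 collagens higher and 1 lower at 30 days (46.8% of all genes were called). At 7 days it called 11 of 27 higher and 1 lower (15.6% of all genes). The plot of region differences gives every tested member with its interval.

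**Figure D2:**
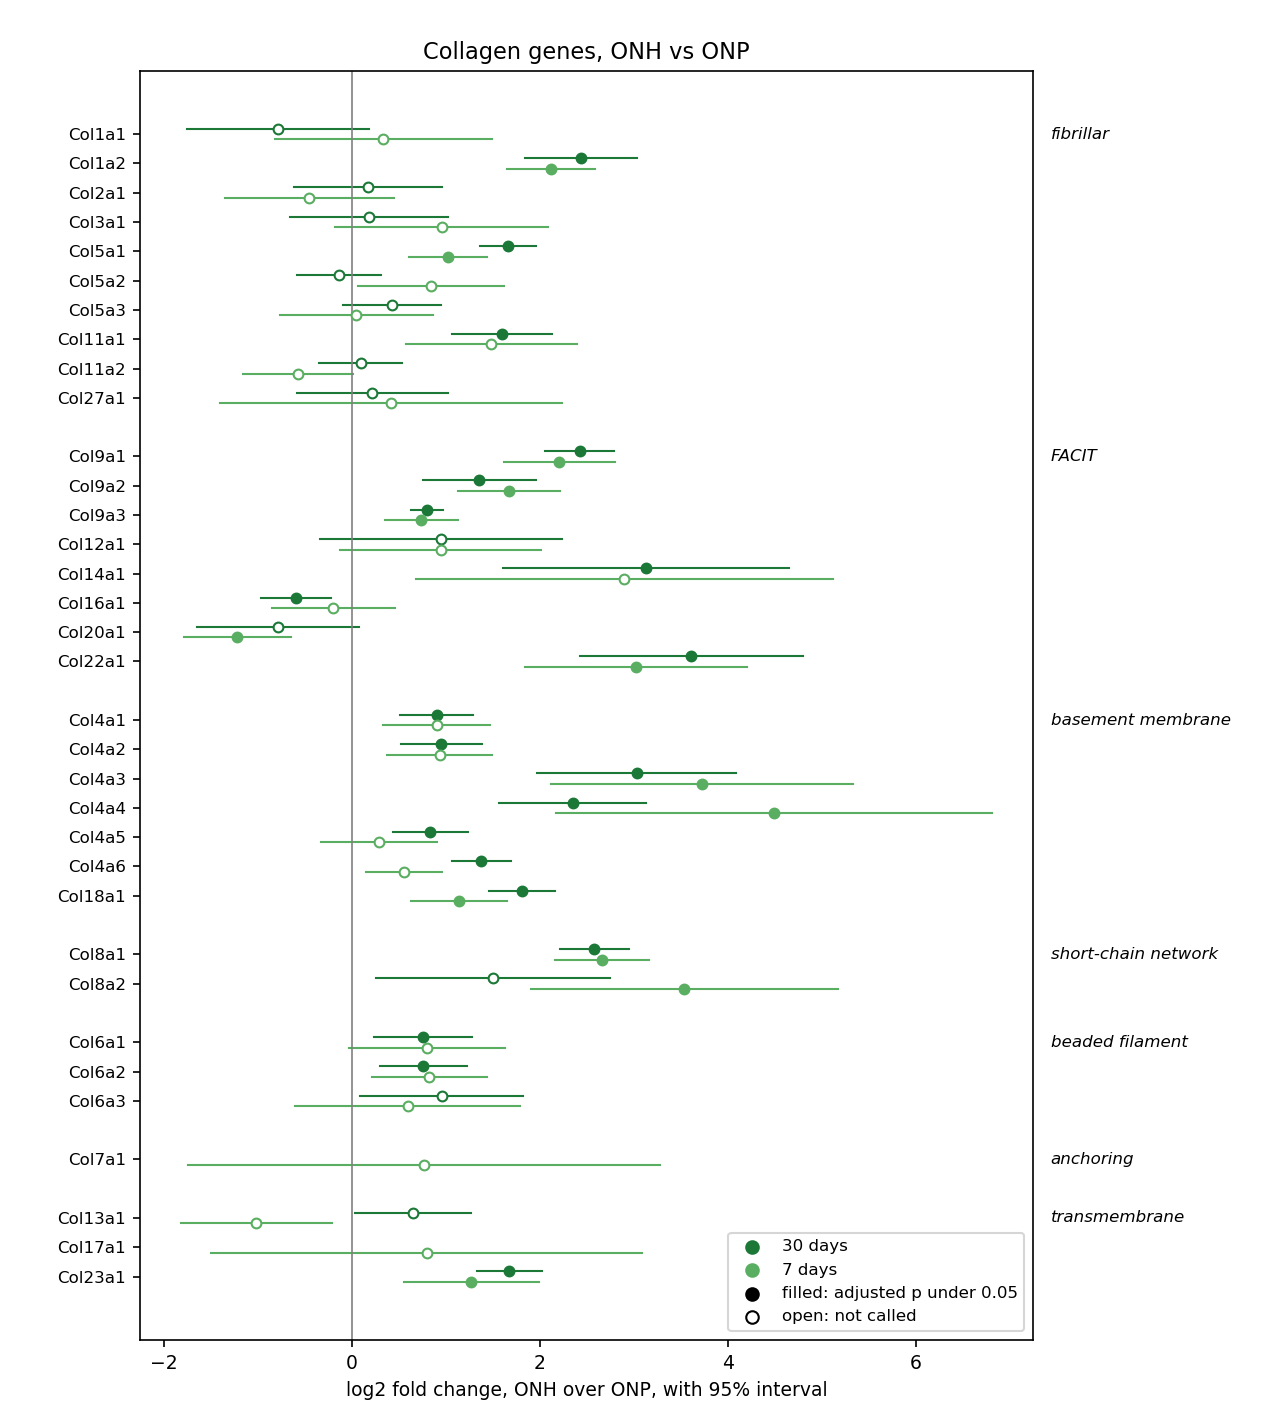
Log2 fold change of the ONH over the ONP (horizontal axis) with its 95% interval for every tested collagen (vertical axis, grouped by class) at 30 days (dark) and 7 days (light). Filled points passed an adjusted p-value of 0.05, and points to the right of the line at 0 were higher in the ONH, as were all 7 basement membrane collagens at 30 days.

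Among the fibrillar collagens, Col1a2, which encodes the second chain of type I collagen, had the highest level. It measured 621, 559, 474 and 689 CPM in the 4 ONH libraries at 7 days and 149, 136, 80.9 and 185 CPM in the 4 ONP libraries. At 30 days its lowest, median and highest values were 277, 434 and 606 CPM in the ONH and 41.1, 60.8 and 152 CPM in the ONP. No ONH library fell as low as an ONP library of the same day, and the ONH was 5.41-fold higher at 30 days (log2FC 2.44 ± 0.30, adjusted p-value 2.00e-05) and 4.33-fold higher at 7 days (log2FC 2.11 ± 0.24, adjusted p-value 4.20e-04), where ± is the standard error of the fit. Col1a1, which encodes the partner chain, was not called at either time. It measured 49.7, 11.7, 41.1 and 120.5 CPM in the ONH and 40.2, 46.7, 17.2 and 75.2 CPM in the ONP at 7 days, and at 30 days 7.98, 16.9 and 46.5 CPM (lowest, median, highest) in the ONH and 13.9, 21.9 and 88.1 CPM in the ONP. The regions overlapped at both times, with log2FC -0.79 ± 0.49, adjusted p-value 0.214 at 30 days (95% interval -1.76 to 0.18) and log2FC 0.33 ± 0.59, adjusted p-value 0.751 at 7 days. With the pool as a block, Col1a1 was called lower in the ONH at 30 days (log2FC -0.76, adjusted p-value 0.0182).

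Col5a1, whose product lies in the core of type I fibrils and limits their diameter, was also higher in the ONH at both times. It measured 43.4, 51.1, 72.3 and 51.6 CPM in the ONH and 25.9, 30.8, 23.4 and 30.04 CPM in the ONP at 7 days. At 30 days it ran from 32.3 to 61.7 CPM in the ONH and from 9.64 to 16.9 CPM in the ONP. Neither day had an overlap between the regions (log2FC 1.66 ± 0.15, adjusted p-value 1.12e-06 at 30 days and log2FC 1.02 ± 0.21, adjusted p-value 0.0106 at 7 days). Col11a1, a chain of the minor fibrillar type XI collagen of cartilage and vitreous, measured 6.28, 17.1, 9.14 and 7.45 CPM in the ONH and 1.65, 3.005, 4.64 and 5.29 CPM in the ONP at 7 days, and 6.37, 12.5 and 14.1 CPM and 2.04, 3.42 and 6.83 CPM (lowest, median, highest) at 30 days. It was called higher in the ONH at 30 days, where 1 low ONH value reached into the ONP range (log2FC 1.59 ± 0.27, adjusted p-value 2.97e-04), and not at 7 days, where the libraries did not overlap (log2FC 1.48 ± 0.46, adjusted p-value 0.0616). The other fibrillar genes tested were not called in either region comparison. Col3a1, the collagen of reticular fibers, had log2FC 0.18 ± 0.43 at 30 days and 0.95 ± 0.58 at 7 days, and Col5a2, the partner of Col5a1, had -0.14 ± 0.23 and 0.84 ± 0.40. For Col2a1, Col5a3, Col11a2 and Col27a1 the log2FC lay between 0.09 and 0.42 at 30 days and between -0.57 and 0.41 at 7 days.

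Fibroblast markers, which mark the main source of fibrillar collagen in meninges and sclera, summed to 633 to 1501 CPM in the ONH and 520.1 to 1056 CPM in the ONP at 30 days. At 7 days the sums were 1092 to 3708 CPM and 664 to 1393 CPM. Of the 12 markers, 2 were called higher in the ONH at each time, and the median log2FC of the list was -0.04 at 30 days and 1.01 at 7 days. Their part in the fibrillar values was not tested.

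Type IX collagen is a FACIT collagen of 3 chains that coats thin fibrils in cartilage and in the vitreous, and all 3 of its genes were higher in the ONH. Col9a1 measured 33.1, 54.3, 29.1 and 48.5 CPM in the ONH and 6.72, 7.67, 7.87 and 14.1 CPM in the ONP at 7 days, and 25.02, 32.4 and 50.5 CPM and 5.17, 6.62 and 9.58 CPM (lowest, median, highest) at 30 days. The regions were apart at both times by 5.37-fold at 30 days (log2FC 2.42 ± 0.19, adjusted p-value 2.56e-07) and 4.61-fold at 7 days (log2FC 2.21 ± 0.30, adjusted p-value 0.00112). Col9a2 showed a smaller difference, with 23.04, 18.5, 28.2 and 26.8 CPM in the ONH and 6.54, 6.01, 7.37 and 11.1 CPM in the ONP at 7 days and 9.32, 20.9 and 42.7 CPM and 5.16, 8.57 and 12.3 CPM at 30 days. It was called at 30 days, where the regions overlapped (log2FC 1.35 ± 0.31, adjusted p-value 0.00242), and at 7 days, where they did not (log2FC 1.67 ± 0.28, adjusted p-value 0.0031). Col9a3, the most abundant of the 3 chains, measured 64.3, 68.8, 81.6 and 101 CPM in the ONH and 39.7, 47.7, 45.3 and 60.6 CPM in the ONP at 7 days, and 60.6, 75.01 and 78.5 CPM and 39.7, 40.7 and 47.8 CPM at 30 days. Its regions did not overlap, and the difference was the smallest of the 3 chains (log2FC 0.80 ± 0.09, adjusted p-value 5.35e-06 at 30 days and log2FC 0.74 ± 0.20, adjusted p-value 0.0344 at 7 days). The 7-day call of Col9a3 was lost in 5 of the 8 fits that left out 1 library (highest adjusted p-value 0.107, without ONP library c). Col9a3 shares 6.07% of its exon bases with Tcfl5 on the other strand, and the library kit does not mark strand.

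The widest fold among the FACIT genes was that of Col22a1, a collagen of tissue junctions such as that of muscle and tendon. It measured 16.9, 26.3, 18.9 and 7.85 CPM in the ONH and 0.489, 1.28, 3.19 and 3.76 CPM in the ONP at 7 days, and 6.06, 18.7 and 37.7 CPM and 0.139, 2.03 and 3.37 CPM (lowest, median, highest) at 30 days. Every ONH library lay above every ONP library of its day (log2FC 3.61 ± 0.61, adjusted p-value 2.51e-04 at 30 days and log2FC 3.02 ± 0.60, adjusted p-value 0.00834 at 7 days). Col14a1, which binds the surface of type I fibrils, measured 5.35, 0.639, 29.2 and 18.8 CPM in the ONH and 3.91, 0.192, 0.29 and 3.07 CPM in the ONP at 7 days, and 0.904, 3.67 and 12.4 CPM and 0, 0.604 and 1.54 CPM at 30 days. It varied widely among libraries of a group, and was called at 30 days (log2FC 3.13 ± 0.78, adjusted p-value 0.00444) and not at 7 days (log2FC 2.90 ± 1.13, adjusted p-value 0.12). The opposite direction was seen in Col16a1 and Col20a1. Col16a1, a FACIT collagen of many connective tissues, measured 14.96, 7.45, 21.2 and 14.6 CPM in the ONH and 15.6, 18.7, 12.7 and 21.6 CPM in the ONP at 7 days, and 7.204, 8.81 and 16.01 CPM and 11.1, 15.2 and 20.8 CPM at 30 days, and was lower in the ONH at 30 days (log2FC -0.59 ± 0.19, adjusted p-value 0.0198) with overlap. Col20a1 measured 5.95, 7.24, 7.499 and 4.18 CPM in the ONH and 13.4, 15.98, 16.6 and 13.5 CPM in the ONP at 7 days, without overlap (log2FC -1.22 ± 0.29, adjusted p-value 0.0196), and 0.526, 2.11 and 6.06 CPM and 1.99, 5.28 and 7.44 CPM at 30 days, with overlap (log2FC -0.79 ± 0.44, adjusted p-value 0.165). Its 7-day call was lost in 2 of 8 fits without 1 library (highest adjusted p-value 0.0675, without ONP library c). Oligodendrocyte markers summed to 18783 to 36302 CPM in the ONH and 81031 to 108838 CPM in the ONP at 7 days, and 10 of 10 were called lower in the ONH (8 of 10 at 30 days). Their part in the lower values of Col16a1 and Col20a1 was not tested. Col12a1, the remaining FACIT gene tested, was not called (0.95 ± 0.66 at 30 days and 0.94 ± 0.55 at 7 days).

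Cartilage markers, of which Cnmd was the highest, summed to 60.02 to 317 CPM in the ONH and 18.1 to 43.2 CPM in the ONP at 30 days, and to 129 to 325 CPM and 13.1 to 29.4 CPM at 7 days. Of the 8, 1 was called higher in the ONH at each time and 2 lower at 30 days, and the defining cartilage gene Acan was at 0 in all 4 ONH and 2 of 4 ONP libraries at 7 days, while Chad, Comp and Prg4 were above 0 in every ONH library at that time. Pigment epithelium markers moved more. They summed to 298 to 2167 CPM in the ONH and 79.01 to 121 CPM in the ONP at 30 days, and to 460.5 to 3803 CPM and 144 to 189 CPM at 7 days. Of the 10, 9 were called higher in the ONH at each time, with a median log2FC of 5.97 at 30 days and 5.33 at 7 days. Of the vessel markers, 2 of 10 endothelial genes were called higher in the ONH at 30 days (median log2FC 0.58) and 1 of 10 at 7 days (0.49). Of the mural genes, 3 of 9 tested were called higher and 1 lower at 30 days (median log2FC -0.16), and 2 of 10 higher at 7 days (0.54). The part of these cells in the ONH values of the FACIT, basement membrane and short-chain collagens was not tested.

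The basement membrane collagens are 6 type IV genes, which lie in head-to-head pairs in the genome, and the glycosaminoglycan-bearing collagens Col15a1 and Col18a1. Stretches before the starts of the Col4a3 and Col4a4 pair, which share one interval, and of the Col4a5 and Col4a6 pair, which have a window each, are shown because partners that start close together are compared below. Those of Col1a2 and Col8a1 are shown because these are abundant genes whose levels did not overlap between the regions at either time. They are from RefSeq (GRCm38.p6), on the strand of the gene, without bases of an annotated exon, and capitals mark GGGCGG or its reverse complement CCGCCC, the letters bound by Sp1-type factors. The interval of 71 bases between Col4a4 and Col4a3 is chr1:82586850-82586920 (minus strand), that of Col4a6 is chrX:141474077-141474326 (minus strand), that of Col4a5 is chrX:141475169-141475384 (plus strand), that of Col1a2 is chr6:4505370-4505492 (plus strand) and that of Col8a1 is chr16:57754738-57754987 (minus strand). The Col1a2 stretch lies inside the gene model, which runs from 4504814 to 4541544, and not before it.
Col4a4 to Col4a3: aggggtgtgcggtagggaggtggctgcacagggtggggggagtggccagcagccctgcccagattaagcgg
Col4a6: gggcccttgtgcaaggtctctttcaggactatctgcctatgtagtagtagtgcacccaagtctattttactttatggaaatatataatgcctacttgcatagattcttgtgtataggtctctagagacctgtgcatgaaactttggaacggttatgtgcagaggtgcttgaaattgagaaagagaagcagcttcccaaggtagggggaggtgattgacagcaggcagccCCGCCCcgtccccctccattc
Col4a5: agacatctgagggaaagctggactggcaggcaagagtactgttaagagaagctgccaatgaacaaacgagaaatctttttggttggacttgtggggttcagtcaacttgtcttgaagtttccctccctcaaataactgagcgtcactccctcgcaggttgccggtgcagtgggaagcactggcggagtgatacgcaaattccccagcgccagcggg
Col1a2: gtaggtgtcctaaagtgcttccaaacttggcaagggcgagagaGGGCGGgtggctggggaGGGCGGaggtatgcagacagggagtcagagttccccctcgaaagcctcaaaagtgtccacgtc
Col8a1: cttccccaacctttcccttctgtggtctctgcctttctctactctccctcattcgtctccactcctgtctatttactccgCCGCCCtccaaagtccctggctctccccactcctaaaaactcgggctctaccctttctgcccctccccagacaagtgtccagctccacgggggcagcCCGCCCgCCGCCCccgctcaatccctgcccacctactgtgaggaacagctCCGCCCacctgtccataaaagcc
The Col4a4 to Col4a3 and the Col4a5 stretches hold 0 matches, that of Col4a6 1, that of Col1a2 2 and that of Col8a1 4. RefSeq promoter windows of 300 bases were found for 35 of the 44 genes (38 windows), and 60.5% of them held the motif on either strand, against 35.7% of 32851 windows of all genes. CCAAT was in 34.2% of the collagen windows and 37.4% of all, and TATAAA in 13.2% and 13.6%. A match is a run of letters and not a known binding site.

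Col4a1 and Col4a2, whose gene models overlap by 22 bases at their starts on chromosome 8, make the type IV network found in nearly every basement membrane. Col4a1 measured 41.8, 26.9, 27.6 and 57.4 CPM in the ONH and 21.8, 22.4, 13.4 and 25.9 CPM in the ONP at 7 days, and 14.3, 22.7 and 35.04 CPM and 9.47, 13.4 and 18.7 CPM (lowest, median, highest) at 30 days. Col4a2 measured 33.2, 22.96, 23.98 and 40.7 CPM in the ONH and 19.6, 20.4, 10.4 and 13.9 CPM in the ONP at 7 days, and 13.1, 20.5 and 26.9 CPM and 6.59, 9.69 and 13.9 CPM at 30 days. The partners had near-equal differences, called at 30 days with overlap (log2FC 0.90 ± 0.20, adjusted p-value 0.00195 for Col4a1 and log2FC 0.95 ± 0.22, adjusted p-value 0.00286 for Col4a2). At 7 days the libraries did not overlap and neither passed the threshold (log2FC 0.90 ± 0.29, adjusted p-value 0.0675 and log2FC 0.93 ± 0.28, adjusted p-value 0.0559), although both passed it in DESeq2 (adjusted p-values 0.0352 and 0.0209). Col4a3 and Col4a4 form a tighter network with Col4a5, known from the glomerulus and from basement membranes of the eye. Col4a3 measured 10.7, 4.84, 2.63 and 16.3 CPM in the ONH and 0.0611, 0.448, 0.621 and 1.42 CPM in the ONP at 7 days, and 2.23, 2.75 and 12.7 CPM and 0.203, 0.346 and 1.24 CPM at 30 days. Col4a4 measured 1.91, 0.669, 3.28 and 7.22 CPM in the ONH and 0, 0.256, 0 and 0.307 CPM in the ONP at 7 days, and 1.46, 2.15 and 3.72 CPM and 0.13, 0.418 and 0.853 CPM at 30 days. Both were scarce, and both were apart between the regions at each time (log2FC 3.03 ± 0.54, adjusted p-value 4.04e-04 and log2FC 2.35 ± 0.40, adjusted p-value 2.90e-04 at 30 days, log2FC 3.73 ± 0.82, adjusted p-value 0.0136 and log2FC 4.49 ± 1.19, adjusted p-value 0.0317 at 7 days).

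The 7-day calls of Col4a3 and Col4a4 rested on few libraries. That of Col4a4 was lost in 6 of 8 fits without 1 library (highest adjusted p-value 0.0744, without ONP library a) and that of Col4a3 in 1 of 8 (0.0514, without ONP library b). ONH libraries a and d had the highest sums of fibroblast and pigment epithelium markers, and library a that of surface epithelium markers. Without ONH libraries a and d, the adjusted p-values of Col4a4 and Col4a3 were 0.101 and 0.0936, with log2FC 3.80 and 2.54. These libraries also held the highest ONH values of Col4a3 at 7 days, so that leaving them out lowers its difference by construction. Col4a3 shares 5.65% of its exon bases with C430014B12Rik on the other strand.

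The X-linked pair Col4a5 and Col4a6 have gene models that start 1308 bases apart, and their region differences were not tested against each other. Col4a5 measured 47.3, 29.2, 17.7 and 20.3 CPM in the ONH and 25.2, 17.01, 24.4 and 29.2 CPM in the ONP at 7 days, and 17.6, 24.1 and 37.4 CPM and 8.31, 15.5 and 18.97 CPM (lowest, median, highest) at 30 days. It overlapped between the regions on both days and was called at 30 days (log2FC 0.83 ± 0.20, adjusted p-value 0.00392) and not at 7 days (log2FC 0.28 ± 0.31, adjusted p-value 0.593). Col4a6, which encodes the chain that joins Col4a5 in a network of smooth muscle and some epithelial basement membranes, measured 73.5, 60.2, 44.6 and 42.7 CPM in the ONH and 37.04, 37.6, 42.5 and 36.9 CPM in the ONP at 7 days, and 37.4, 53.9 and 67.8 CPM and 16.1, 19.96 and 25.6 CPM at 30 days. It did not overlap on either day and was called at 30 days (log2FC 1.38 ± 0.16, adjusted p-value 1.27e-05) and not at 7 days (log2FC 0.55 ± 0.21, adjusted p-value 0.108). Col18a1, the source of endostatin, was the most abundant of the class, with 116, 137, 57.1 and 133 CPM in the ONH and 60.5, 44.1, 56.98 and 42.5 CPM in the ONP at 7 days and 58.7, 78.6 and 133 CPM and 20.3, 25.1 and 34.1 CPM at 30 days. It was called at both times (log2FC 1.81 ± 0.18, adjusted p-value 2.74e-06 at 30 days and log2FC 1.14 ± 0.26, adjusted p-value 0.0164 at 7 days), with overlap at 7 days only through ONH library c. The 7-day call of Col18a1 was lost in 2 of 8 fits without 1 library (highest adjusted p-value 0.0638, without ONP library d) and without ONH libraries a and d (0.0687). Col15a1, found in basement membranes of muscle and vessels, was at 2.20 CPM or less in every library and could not be tested between the regions.

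Of the short-chain collagens, which include the lattice of Descemet's membrane in the cornea, Col8a1 had the smallest adjusted p-value of all 44 genes at both times. It measured 129.7, 78.98, 79.3 and 161 CPM in the ONH and 16.2, 20.4, 16.2 and 19.1 CPM in the ONP at 7 days, and 54.6, 76.9 and 117 CPM and 10.9, 13.1 and 18.5 CPM (lowest, median, highest) at 30 days. The regions did not overlap, and the ONH was 5.97-fold higher at 30 days (log2FC 2.58 ± 0.19, adjusted p-value 1.39e-07) and 6.33-fold higher at 7 days (log2FC 2.66 ± 0.26, adjusted p-value 2.24e-04). Its partner chain Col8a2 varied more, with 46.5, 6.48, 19.3 and 93.3 CPM in the ONH and 3.36, 4.41, 0.538 and 6.06 CPM in the ONP at 7 days and 4.57, 10.3 and 62.5 CPM and 1.18, 5.17 and 15.2 CPM at 30 days. It was called at 7 days (log2FC 3.54 ± 0.83, adjusted p-value 0.0188) and not at 30 days (log2FC 1.50 ± 0.64, adjusted p-value 0.0699), although the fit with the pool as a block called it at 30 days (log2FC 1.56, adjusted p-value 0.0171). The 7-day call of Col8a2 was lost in 2 of 8 fits without 1 library (highest adjusted p-value 0.0586, without ONP library a), and without ONH libraries a and d its log2FC was 1.89 (adjusted p-value 0.123). Those libraries held its highest ONH values (46.5 and 93.3 CPM), so that leaving them out lowers its difference by construction.

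Type VI collagen forms beaded microfibrils from the Col6a1 and Col6a2 chains joined by Col6a3 or one of its relatives. Col6a1 measured 108, 47.5, 37.4 and 131 CPM in the ONH and 44.3, 41.8, 25.1 and 77.7 CPM in the ONP at 7 days, and 31.1, 44.04 and 69.9 CPM and 12.5, 25.3 and 46.2 CPM (lowest, median, highest) at 30 days. Col6a2 measured 97.7, 58.5, 55.6 and 156 CPM in the ONH and 52.02, 50.8, 40.3 and 67.9 CPM in the ONP at 7 days, and 41.4, 54.7 and 69.6 CPM and 20.3, 30.9 and 60.2 CPM at 30 days. The regions overlapped on both days for both genes. They were called at 30 days (log2FC 0.75 ± 0.27, adjusted p-value 0.0329 for Col6a1 and log2FC 0.76 ± 0.23, adjusted p-value 0.0168 for Col6a2) and not at 7 days (log2FC 0.80 ± 0.42, adjusted p-value 0.243 and log2FC 0.82 ± 0.31, adjusted p-value 0.112), and the call of Col6a1 was lost in 7 of 14 fits without 1 library (highest adjusted p-value 0.0696, without ONH replicate 3). Col6a3, their usual partner, was not called (0.95 ± 0.44 at 30 days and 0.59 ± 0.61 at 7 days). Col6a5, a relative of Col6a3, was at 0 in all 7 ONP libraries at 30 days and ran from 0 to 1.12 CPM in the ONH. It was too low for the edgeR test of the regions. DESeq2 called it higher in the ONH at 30 days (adjusted p-value 5.10e-06), where it called 36.8% of all genes. It also did so at 7 days (0.00444), where it called 19%. Col6a5 entered those fits almost only through its ONH counts, and it is not among the calls counted above.

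Among the transmembrane collagens, Col23a1 was the most abundant and was higher in the ONH. It measured 73.4, 55.99, 42.2 and 20.4 CPM in the ONH and 21.03, 17.3, 14.2 and 29.04 CPM in the ONP at 7 days, and 25.4, 37.7 and 47.2 CPM and 6.99, 12.3 and 16.7 CPM (lowest, median, highest) at 30 days. The regions were apart at 30 days (log2FC 1.68 ± 0.18, adjusted p-value 4.83e-06) and overlapped at 7 days (log2FC 1.27 ± 0.37, adjusted p-value 0.0454), where the call was lost in 7 of 8 fits without 1 library (highest adjusted p-value 0.130, without ONP library c). Col13a1, which clusters acetylcholine receptors at the neuromuscular junction, measured 6.06, 3.22, 7.72 and 7.91 CPM in the ONH and 13.4, 11.4, 6.63 and 20.1 CPM in the ONP at 7 days, and 2.71, 7.36 and 14.01 CPM and 3.61, 5.09 and 8.08 CPM at 30 days. It was not called in either comparison, and its values were opposite in sign (log2FC 0.65 ± 0.31, adjusted p-value 0.11 at 30 days and log2FC -1.02 ± 0.41, adjusted p-value 0.127 at 7 days). Col17a1, a hemidesmosome collagen of skin, and Col25a1, a neuronal transmembrane collagen, did not pass 2.02 CPM and 3.24 CPM in any library.

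Chains of one collagen assemble together, and the ratio of their levels within a library does not depend on the library's total. Per kilobase of exon, Col1a2 over Col1a1 was 4.93 to 33.9 (median 18.9) in the ONH and 0.909 to 1.68 (median 1.46) in the ONP at 30 days. At 7 days it was 3.02 to 25.3 (median 6.34) in the ONH and 1.296 to 2.49 (median 1.75) in the ONP. The ONH ratios were above every ONP ratio of the same day. The size of this ratio depends on the length used, and with the longest transcript in place of all exons it was 10.4 to 71.1 (median 39.7) in the ONH and 1.91 to 3.52 (median 3.07) in the ONP at 30 days, since the merged exons of Col1a2 span 12426 bases and its longest transcript 5348. In type I collagen itself the Col1a1 chain is the more numerous of the pair.

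The Col4a1 over Col4a2 ratio had medians near 1 but spread widely between libraries, at 0.834 to 1.59 (median 1.02) in the ONH and 0.603 to 1.901 (median 1.24) in the ONP at 30 days. Col4a6 over Col4a5 was 1.49 to 1.98 (median 1.86) in the ONH and 1.02 to 1.63 (median 1.19) in the ONP at 30 days, with overlap. Col9a1 over Col9a3 was apart between the regions, at 0.314 to 0.505 (median 0.343) in the ONH and 0.098 to 0.179 (median 0.124) in the ONP at 30 days and 0.271 to 0.6 (median 0.378) and 0.122 to 0.177 (median 0.13) at 7 days. The type V pair was apart at 30 days only, with Col5a1 over Col5a2 at 5.45 to 21.5 (median 8.85) in the ONH and 2.02 to 4.08 (median 2.56) in the ONP. In contrast, Col6a1 over Col6a2 was 1.21 to 2.12 (median 1.53) in the ONH and 1.14 to 2.002 (median 1.56) in the ONP, and Col6a3 was far scarcer, with Col6a2 over Col6a3 at 13.9 to 38.7 (median 22.3) and 7.76 to 71.3 (median 25.9).

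**Figure D3:**
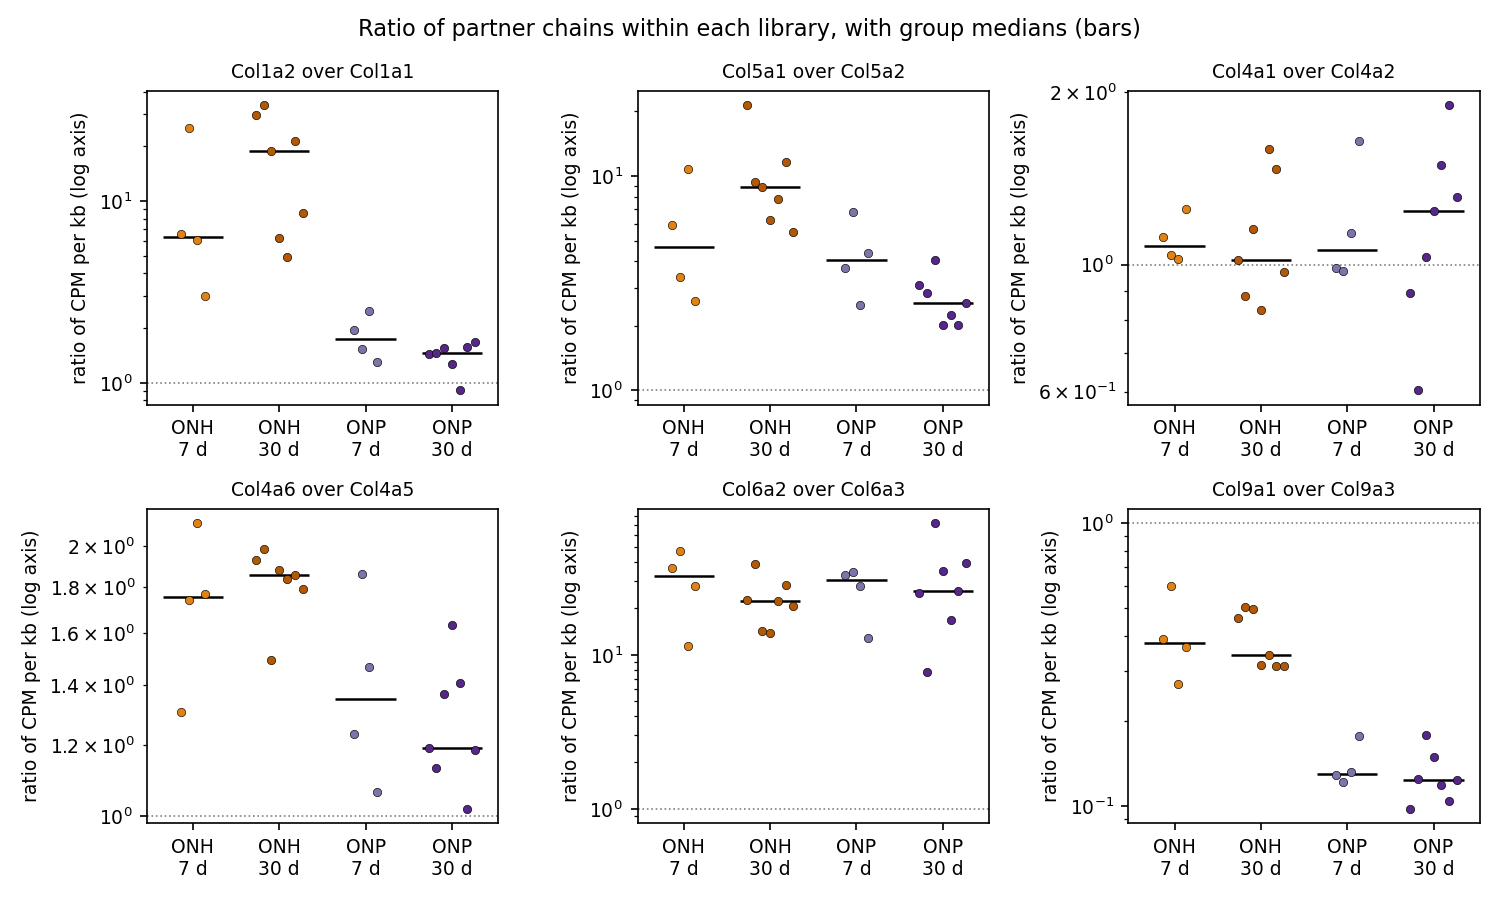
Ratio of CPM per kilobase of exon between partner chains (vertical axes, logarithmic, dotted line at 1) in each library (points) with the median of each group (bars). Col1a2 over Col1a1 and Col9a1 over Col9a3 are higher in every ONH library than in any ONP library of the same day, and Col4a1 over Col4a2 lies on both sides of 1, with overlapping groups.

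With time, 9 collagens fell in the ONP and 0 rose. Of 34 tested between 30 and 7 days, 9 were called lower, where 17% of 15491 genes were called (7.82% higher and 9.21% lower). The log2FC of 30 of the 34 was below 0 (50.7% of all genes), with a median of -0.68 against -0.01 over all genes, and 5 did not overlap in the lower direction (5.55% of all genes). By class the lower calls were 4 of 7 basement membrane, 2 of 2 transmembrane, 1 of 8 FACIT, 1 of 10 fibrillar, 1 of 1 anchoring, 0 of 3 beaded filament and 0 of 2 short-chain collagens. The anchoring gene Col7a1, also among the 5 without overlap, passed the count filter only through its 7-day libraries. The ONP libraries are the same as those of the region comparisons, so the time and region results are not independent of each other. The count was 5 without ONP 7-day library d, where 9.12% of all genes were called. It was 15 without ONP 30-day replicates 4 and 5, where 21.3% of all genes were called, but these libraries were picked for the highest fibrillar sums of their group, so that leaving them out lowers the 30-day values by construction.

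Of the 9, 4 were basement membrane genes. Col18a1 went from 60.5, 44.1, 56.98 and 42.5 CPM at 7 days to 20.3 to 34.1 CPM at 30 days, without overlap (log2FC -1.03 ± 0.17, adjusted p-value 0.00229). Col4a6 went from 37.04, 37.6, 42.5 and 36.9 CPM to 16.1 to 25.6 CPM, also without overlap (log2FC -0.88 ± 0.14, adjusted p-value 0.00189). The other pair of the 4 overlapped between the times, Col4a5 with log2FC -0.75 ± 0.21, adjusted p-value 0.0292 and Col4a1 with log2FC -0.71 ± 0.23, adjusted p-value 0.0499. The calls of this pair were not steady. That of Col4a1 was lost in 9 of 11 fits without 1 library and that of Col4a5 in 4 of 11, with the highest adjusted p-values, 0.164 and 0.114, without ONP 7-day library d. Col4a2 had a log2FC near that of Col4a1 and was not called (log2FC -0.69 ± 0.25, adjusted p-value 0.0816).

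The other 5 came from 4 classes. Col5a1 fell from 25.9, 30.8, 23.4 and 30.04 CPM to 9.64 to 16.9 CPM (log2FC -0.93 ± 0.15, adjusted p-value 0.00252) and Col20a1 from 13.4, 15.98, 16.6 and 13.5 CPM to 1.99 to 7.44 CPM (log2FC -1.65 ± 0.30, adjusted p-value 0.0046), each without overlap. The transmembrane genes Col13a1 and Col23a1 fell with overlap (log2FC -1.26 ± 0.30, adjusted p-value 0.0146 and log2FC -0.80 ± 0.23, adjusted p-value 0.0352). Without ONP 7-day library d their adjusted p-values were 0.0705 and 0.1503, and the call of Col23a1 was lost in 6 of 11 fits without 1 library. Col7a1, the anchoring fibril collagen of epithelial basement membrane, had the widest gap. It had 253 counts over the 4 ONP libraries at 7 days (27 to 128 in each) and 7 counts over the 7 ONP libraries at 30 days (0 to 2 in each), a rate 65.4 times as high at 7 days (95% exact interval 31.3 to 164, counting error only). The fit gave Col7a1 an adjusted p-value of 2.40e-04. It passed the count filter through its 7-day libraries alone, and was not tested when 10 counts were required in each library. In the ONH, Col7a1 was 0, 1.67, 17.2 and 0.287 CPM at 7 days and 0.0438, 0.775 and 2.804 CPM (lowest, median, highest) at 30 days. Surface epithelium markers summed to 10.1 to 97.4 CPM in the ONP at 7 days and 2.85 to 55.3 CPM at 30 days, and 1 of 7 tested was called lower. The part of such cells in the Col7a1 values was not tested.

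Endothelial markers summed to 157 to 228 CPM in the ONP at 7 days and 15.7 to 130.3 CPM at 30 days, without overlap, and 7 of 10 were called lower at 30 days. Oligodendrocyte markers were also lower at 30 days in 7 of 10, mural markers in 3 of 9 tested and fibroblast markers in 1 of 12, and 2 of 10 astrocyte markers were higher. Pigment epithelium markers were lower in 3 of 6 tested (median log2FC -1.52). They summed to 144 to 189 CPM at 7 days and 79.01 to 121 CPM at 30 days, without overlap. Of 7 cartilage markers tested, 1 was lower and 1 higher, and 0 of 10 microglia markers were called. Vessels carry much of the type IV and type XVIII collagen of nerve. The part of these cells in the lower ONP values at 30 days was not tested.

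**Figure D4:**
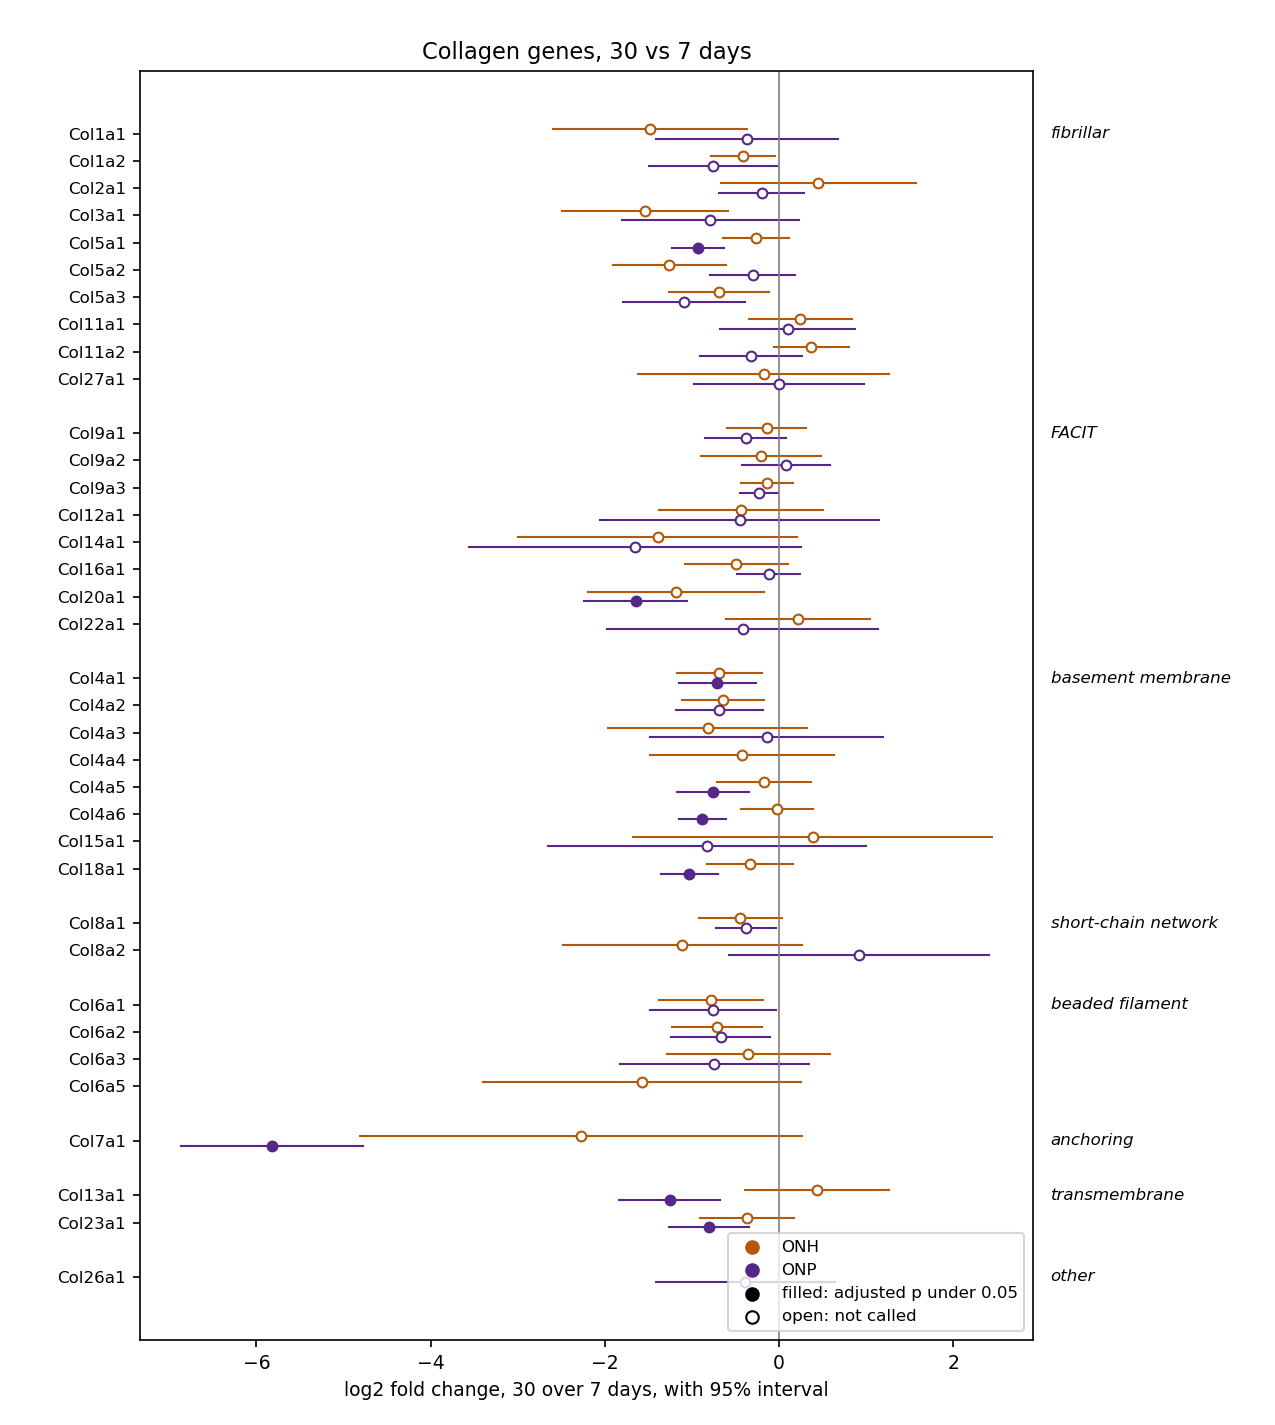
Log2 fold change of 30 over 7 days (horizontal axis) with its 95% interval for every tested collagen (vertical axis, grouped by class) in the ONH and the ONP. Filled points passed an adjusted p-value of 0.05. The 9 filled points are all ONP values below 0, and no ONH value is filled.

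In the ONH, no collagen was called between 30 and 7 days by edgeR (0 of 35 tested). Nor was any other gene, with 0% of 15668 genes called and a smallest adjusted p-value of 0.07001. At an unadjusted p-value under 0.05, 10 collagens were lower and 0 higher, where 13.9% of all genes passed (7.1% higher and 6.8% lower). The median log2FC of the 35 was -0.43 against -0.02 over all genes, and it was -0.17 without ONH 7-day libraries a and d. These libraries also had the highest fibrillar collagen sums of their group (822 and 1137 CPM), so that leaving them out lowers the 7-day fibrillar values by construction. The smallest adjusted p-value was that of Col5a2, a chain of type V collagen (log2FC -1.26 ± 0.33, adjusted p-value 0.189). It measured 8.298, 17.1, 7.55 and 22.3 CPM at 7 days and 3.24, 5.97 and 7.16 CPM (lowest, median, highest) at 30 days, and was the only one of the 35 without overlap (0.543% of all genes in that direction). DESeq2 called 2 collagens lower, Col5a2 (log2FC -1.28, adjusted p-value 0.0212) and Col17a1 (adjusted p-value 0.0107), where it called 2.49% of 17929 genes. Col17a1, which edgeR did not test here, had 2.02, 0.243, 0.547 and 0.63 CPM at 7 days and at most 0.106 CPM at 30 days, also without overlap. It entered the DESeq2 fit almost only through its 7-day counts. An edgeR fit of all 4 groups called the same pair, and 1.74% of 16748 genes. Col3a1 (-1.54 ± 0.49) and Col1a1 (-1.48 ± 0.57) had low values too, and Col1a2 was at -0.42 ± 0.19. No marker gene was called, but several lists lay below 0 as a whole. All 12 fibroblast markers had a log2FC below 0 (median -1.18, 8 with an unadjusted p-value under 0.05), as did 10 of 10 endothelial (median -1.97, 7 with such a p-value), 10 of 10 mural (-1.15, 5), 10 of 10 pigment epithelium (-1.03, 2) and 7 of 7 tested surface epithelium markers (-3.99, 6). The sum of mural markers was 584 to 1439 CPM at 7 days and 323 to 873 CPM at 30 days. Their part in the ONH values was not tested.

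Whether the change with time differed between the regions was tested by an interaction over all 4 groups. None of 39 collagens was called by edgeR, where 0.543% of 16748 genes were, and 7 collagens passed an unadjusted p-value of 0.05 (2 higher and 5 lower), against 12.6% of all genes (5.54% higher and 7.02% lower), while DESeq2 also called 0. The smallest adjusted p-value was that of Col4a6, with the change in the ONP minus that in the ONH at log2FC -0.85 ± 0.26, adjusted p-value 0.134 (95% interval -1.35 to -0.35). Col13a1 followed (log2FC -1.69 ± 0.54, adjusted p-value 0.159) and then Col5a1 (log2FC -0.66 ± 0.25, adjusted p-value 0.266). The calls in the ONP and their lack in the ONH therefore do not show a difference between the regions for any single collagen. For Col18a1 the interaction was -0.69 ± 0.31 and for Col7a1 -3.53 ± 1.65, neither past the threshold.

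**Figure D5:**
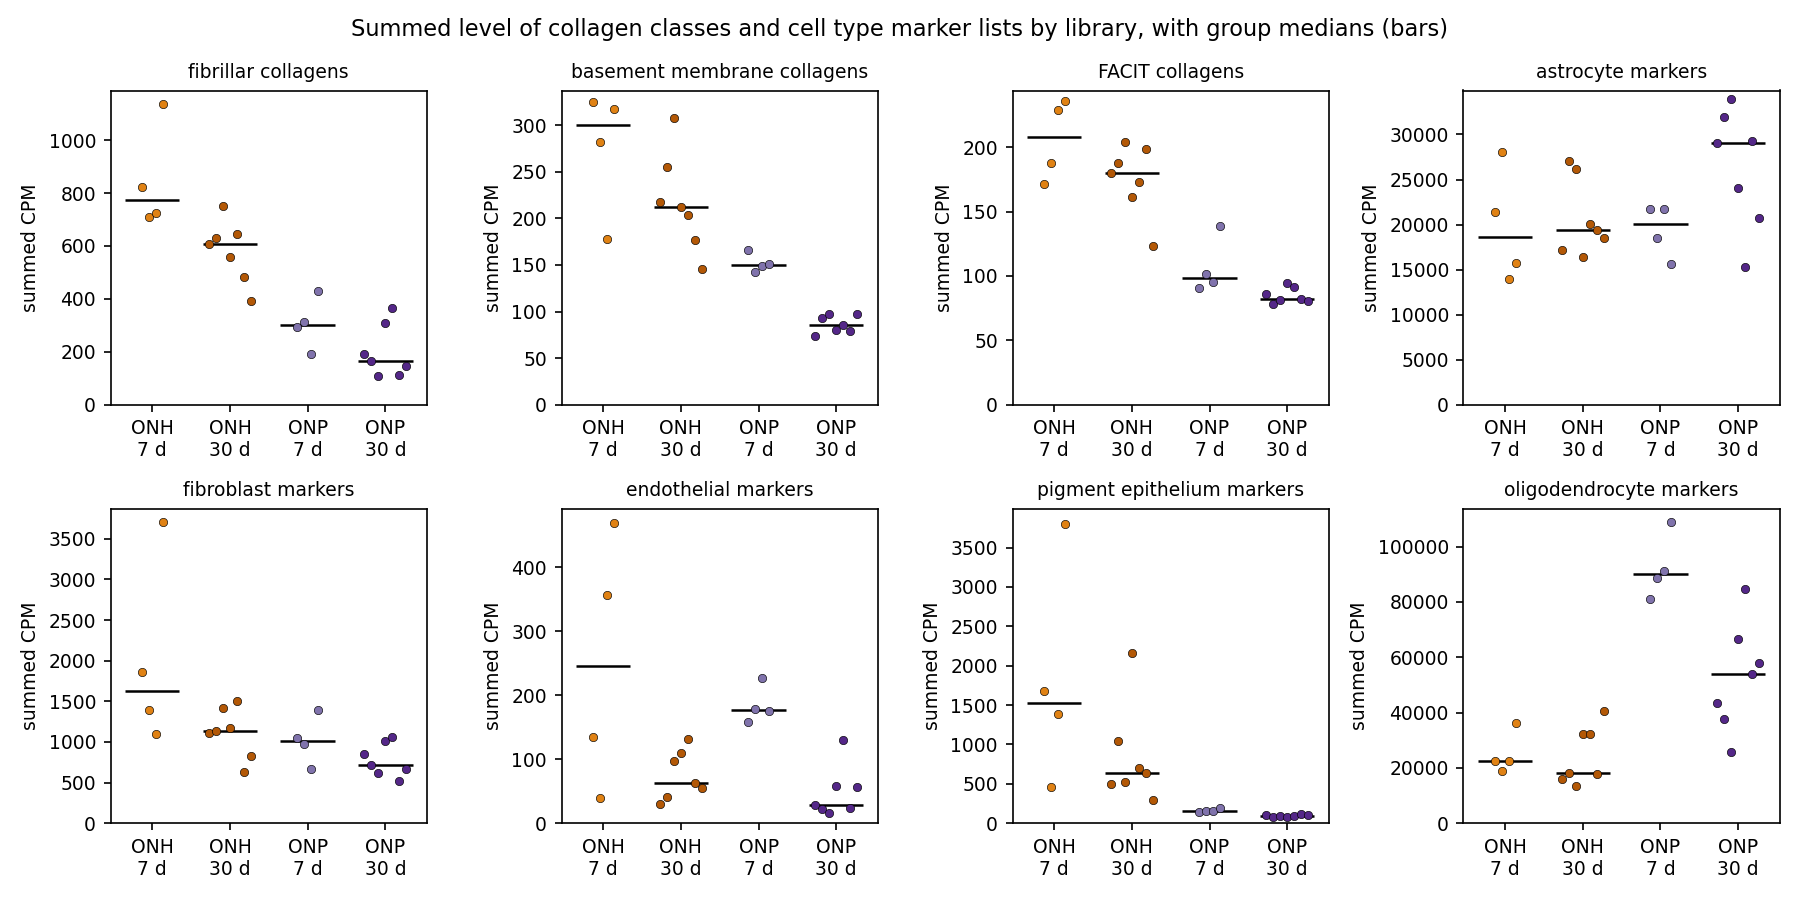
Summed CPM (vertical axes, from 0) of 3 collagen classes and of 5 marker lists in each library (points) with the median of each group (bars), for the ONH and ONP at 7 and 30 days. Pigment epithelium markers are higher in every ONH library than in any ONP library, oligodendrocyte markers are higher in the ONP at 7 days, and endothelial markers in the ONP are lower at 30 than at 7 days.

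The machinery of collagen was followed in a list of 50 genes for chain modification and folding (20), propeptide cleavage and crosslinking (14), receptors (9) and degradation (7). At 30 days, 12 of 41 tested differed between the regions, 10 higher and 2 lower in the ONH (41.8% of all genes were called), of which 9 were modification and folding genes. Those with the smallest adjusted p-values were the prolyl isomerase Ppib (log2FC 0.65 ± 0.08), the crosslinking enzyme Loxl2 (1.64 ± 0.22), the lysyl hydroxylases Plod1 (-0.79 ± 0.13) and Plod2 (1.09 ± 0.21), Crtap of the prolyl hydroxylation complex (0.66 ± 0.12) and the prolyl hydroxylase subunit P4ha1 (1.02 ± 0.22). Plod1 was thus lower and Plod2 higher in the ONH. At 7 days, 9 of 43 differed, 7 higher and 2 lower (13.2% of all genes were called), led by Plod1 (-1.19 ± 0.21), Crtap (1.12 ± 0.20), Loxl2 (1.06 ± 0.21), the chaperone Fkbp14 (0.85 ± 0.20), the protease Fap (4.81 ± 1.19) and Loxl1 (1.69 ± 0.42). Fap was at 0.331 CPM or less in the ONP at 7 days and passed the count filter only through its ONH libraries. None of the collagen receptors was called between the regions at either time (8 tested at 30 days and 9 at 7 days), at p-values that do not show that they were equal.

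In the ONP, 11 of 42 tested machinery genes were lower at 30 than at 7 days and 0 were higher (17% of all genes were called). They were 7 of 20 modification and folding genes, 3 of 8 receptors and 1 of 11 cleavage and crosslinking genes. The 6 with the smallest adjusted p-values were the receptor Ddr1, a tyrosine kinase that binds collagen (-0.67 ± 0.09), Plod1 (-0.91 ± 0.12), the protein disulfide isomerase P4hb (-0.57 ± 0.08), the integrin subunit Itgb1 (-0.67 ± 0.10), Plod3 (-0.64 ± 0.12) and Loxl2 (-1.21 ± 0.23). In the ONH 0 of 46 were called between the times and in the interaction 0 of 48, by edgeR and by DESeq2, while 9 and 7 passed an unadjusted p-value of 0.05 in edgeR.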

How the data were processed

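The authors deposited a table of estimated counts per gene, held as whole numbers, which they made with STAR 2.6.1d, Salmon 0.14.2 and tximport on mm10 with Ensembl gene models, per the study's methods. A variance-stabilized table was not used, and 0 columns of per-library values were left out. Libraries were made with an oligo-dT kit that does not mark strand.

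The columns of the 30-day libraries carry the replicate number of the labels. Those of the 7-day libraries carry other numbers, and these were named a to d in column order, as names only. Replicates are separate pools of mice. Counts were tested in edgeR 4.0.16 (R 4.3.3) by the quasi-likelihood test after filterByExpr and TMM scaling, with the 2 groups of each comparison in the fit (all 4 for the interaction) and Benjamini-Hochberg adjustment over all genes tested; a call was an adjusted p-value under 0.05. A 95% interval of a log2FC is 1.96 standard errors on each side, and the standard error is the log2FC over the root of the F statistic. The normal quantile ignores the small number of libraries, so these intervals are narrower than the test itself would give. The fits were tested on simulated data. The ONH and ONP of a pool came from the same mice. Equal replicate numbers at 30 days were taken to mark 1 pool, which the study's methods do not state. Deviations from the group means correlated at 0.113 to 0.562 in all 7 pairs. The own number was the best match for ONH replicates 3, 5, 6 and 7 and not for 1, 2 and 4. The number served as a block in an alternative fit. Other alternatives were DESeq2 1.42.0, scaling by RLE factors or by library totals alone, testing every gene with a count, requiring 10 counts in each library tested, a joint fit of all 4 groups, each library left out in turn and, added after the data were seen, groups of libraries that stood apart left out and a block by the numbers in the 7-day column names.

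The member genes, gene lists and marker lists were chosen with earlier results of these data known. Values in every 7-day library, and the lowest and highest of the 30-day groups, mostly with the median, are given for members called in any of the 5 comparisons and for the 3 with the highest level per kilobase in each region, and the machinery genes named are the 6 with the smallest adjusted p-value in a comparison. Other members named with values were chosen after the values were seen. Gene positions, exon and transcript lengths and shared exon bases are from GENCODE gene models, and promoter windows from RefSeq (GRCm38.p6), matched by symbol or identifier.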

Additional observations from a re-analysis of the deposited data

Results flagged for a closer look

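Single libraries lay far from the rest of their group in 8 of 151 sets of collagen values (a gene in a group), judged by the gap to the nearest library over the range of the group on the log2(CPM + 0.5) scale, and chance gives about 1 in 20. Each ratio of gap to range follows its gene. In the ONH at 30 days, Col11a1 was lowest in replicate 7 (0.741), at 6.37 CPM against 11.5 to 14.1 CPM in the others. Col25a1 was highest in replicate 1 of the same group (0.607), at 3.24 CPM against 0 to 0.602 CPM, and Col26a1 in replicate 7 (0.615), at 1.27 CPM against 0 to 0.314 CPM. In the ONP at 30 days, Col5a1 was lowest in replicate 6 (0.667), at 9.64 CPM against 14.0 to 16.9 CPM.

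In the ONP at 7 days, library b alone had counts of Col25a1 (ratio 1, 0.256 CPM) and of Col28a1 (ratio 1, 1.02 CPM). Library c was highest for Col4a6 (0.875), at 42.5 CPM against 36.9 to 37.6 CPM, and library d for Col6a3 (0.937), at 7.56 CPM against 2.07 to 2.26 CPM. Of these genes, the calls of Col5a1, Col11a1 and Col4a6 at 30 days and those of Col5a1 and Col4a6 with time in the ONP were not lost when any 1 library was left out.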

How the results depend on the processing

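The count of collagens called kept within 1.5 times its value in most alternatives. Between the regions it was 16 to 23 at 30 days (20 as reported), where 22.1% to 46.8% of all genes were called. At 7 days it was 9 to 17 (13), where 7.3% to 22.6% of all genes were called, apart from the fits of 6 libraries given below. Col4a3, Col4a4, Col14a1 and Col22a1 were not tested between the regions when 10 counts were required in each library. With time in the ONP it was 6 to 10 (9), where 7.1% to 20.3% of all genes were called. The exception was 15 without 30-day replicates 4 and 5 (21.3% of all genes). With time in the ONH the count was 2 in DESeq2 and 2 with all 4 groups in 1 fit (Col5a2 and Col17a1 in both) and otherwise 0. For the interaction it was 0 throughout, also with the replicate block. Leaving out each library in turn gave 19 to 22 between the regions at 30 days (37% to 41.9% of all genes). At 7 days it gave 6 to 12 (7.26% to 15.8% of all genes), with 6 without ONP library b (7.56%). With time in the ONP it gave 5 to 9 (9.12% to 20.9% of all genes), with 5 without ONP 7-day library d (9.12%). With time in the ONH and for the interaction it gave 0 to 0. The median log2FC of the interaction over the collagens tested, -0.24, ran from -0.33 (without ONP 7-day library c) to 0.068, a turn in sign without ONP 7-day library d. The replicate block at 30 days gave 22 calls in place of 20, added Col1a1 and Col8a2, and changed no other call of a collagen. At 7 days the numbers in the column names are not those of the labels, but 1, 5 and 6 occur in both regions. The deviations of these 3 pairs correlated at 0.0122, 0.0263 and 0.186, and only number 6 was the best match of its ONH library. The numbers were not taken to pair the libraries. A fit with them as a replicate block, added after the data were seen, gave 7 calls (5.89% of all genes were called). The same 6 libraries without pairing gave 6 (6.12% of all genes). Without ONH 7-day libraries a and d, 9 of 38 collagens were called between the regions at 7 days, of which 8 were among the 13. In that fit 18.7% of 16005 genes were called, against 13.2% in the fit reported. Scaling by library size alone moved the median log2FC of all genes to 0.11 from -0.01 with time in the ONP, and to 0.18 from 0.07 between the regions at 7 days. A gene at 3 counts or fewer in every library, or 0.0901 to 0.184 CPM, could show no difference at this depth.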
